A study of Mus musculus with 17 samples.

Results

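Glycogen is the branched glucose polymer that β cells can build from imported glucose and take apart again. The genes described here are 7 genes of its metabolism, *Stbd1*, *Gys1*, *Gbe1*, *Pygb*, *Pygl*, *Ppp1r3c* and *Gaa*, out of 55357 genes in the data. They were chosen by symbol, and their estimated read counts were summed over all transcripts in each of the 17 samples. All 7 passed the filter on low counts, as did 22784 genes in all. *Stbd1* was chosen because its fall in high glucose was already known in the control cells, so the control glucose comparison is described below without a test.

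The cells were β cells of male C57BL/6 mice, sorted from islets after 72 hours (3 days) of culture in low (2.8 mM) or high (16.7 mM) glucose. Control cells came from mice labelled WT that carried the RIP-Cre deleter and the Cre-inducible Rosa26 tdTomato reporter, and knockout cells (Pcbp2 βKO) from mice that carried the same Cre and reporter together with floxed alleles of *Pcbp2*, which encodes an RNA-binding protein. There were 3 control samples at 2.8 mM, 4 control samples at 16.7 mM and 5 Pcbp2 βKO samples at each concentration. RIP-Cre is driven by the rat insulin promoter, so deletion and the red label were confined by design to insulin-producing cells, and living tdTomato-positive cells were sorted. The controls carried no floxed allele. The ages of these mice were not given in the sources used here, and nothing there said whether a sample was 1 animal or a pool, so p-values measure the spread between these samples, which may be technical. The study's own model held a batch term whose levels the labels do not give, so the tests here hold none, and batch cannot be told apart from the groups or from the spread within them.

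Glycogen synthase, encoded by *Gys1* in most tissues outside the liver, lengthens the chains, and the branching enzyme *Gbe1* adds the branch points. Glycogen phosphorylase shortens them in the cytosol, and *Pygb*, *Pygl* and *Pygm* encode its brain, liver and muscle isozymes. *Ppp1r3c* encodes a glycogen-targeting subunit of protein phosphatase 1, which brings the phosphatase to the particle, where it activates synthase and inactivates phosphorylase. *Stbd1* encodes a starch-binding protein thought to tether glycogen to membranes and to the autophagy machinery, and *Gaa* encodes the acid α-glucosidase that digests glycogen in lysosomes.

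The promoters of the members with the clearest glucose differences in Pcbp2 βKO cells (*Stbd1*, *Gys1* and *Gbe1*), and of *Ppp1r3c*, which was lower in high glucose in most samples, are shown so that their sequence can be set beside their expression. Each runs from 250 bases before to 50 bases after the start of the RefSeq transcript, 5′ to 3′ on the strand of the gene, and each was found once by exact match in GRCm39, the build of the deposited tables. Capitals mark the GC box GGGCGG on either strand (CCGCCC on the other) and the E-box CACGTG, which reads alike on both strands. Overlapping GC boxes were each counted. *Stbd1* lies on the plus strand at chr5:92750660-92750959, *Gys1* on the plus strand at chr7:45084013-45084312, *Gbe1* on the plus strand at chr16:70110587-70110886 and *Ppp1r3c* on the minus strand at chr19:36713955-36714254.
Stbd1: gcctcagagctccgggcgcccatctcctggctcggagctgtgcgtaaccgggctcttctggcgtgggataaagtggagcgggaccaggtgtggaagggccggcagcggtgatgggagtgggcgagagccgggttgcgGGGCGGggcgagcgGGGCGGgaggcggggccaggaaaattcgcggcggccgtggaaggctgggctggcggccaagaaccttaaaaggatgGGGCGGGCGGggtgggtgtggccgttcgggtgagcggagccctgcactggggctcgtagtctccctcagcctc
Gys1: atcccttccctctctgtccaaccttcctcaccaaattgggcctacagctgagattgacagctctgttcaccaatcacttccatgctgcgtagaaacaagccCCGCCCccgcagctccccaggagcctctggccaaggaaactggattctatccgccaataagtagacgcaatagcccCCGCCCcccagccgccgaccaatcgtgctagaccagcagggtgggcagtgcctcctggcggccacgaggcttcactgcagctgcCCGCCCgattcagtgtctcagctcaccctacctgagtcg
Gbe1: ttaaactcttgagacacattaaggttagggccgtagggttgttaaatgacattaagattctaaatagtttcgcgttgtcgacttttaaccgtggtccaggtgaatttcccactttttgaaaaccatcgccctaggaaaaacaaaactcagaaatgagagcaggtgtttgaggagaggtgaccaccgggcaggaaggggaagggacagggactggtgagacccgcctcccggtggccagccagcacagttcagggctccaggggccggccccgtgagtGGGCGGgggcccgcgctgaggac
Ppp1r3c: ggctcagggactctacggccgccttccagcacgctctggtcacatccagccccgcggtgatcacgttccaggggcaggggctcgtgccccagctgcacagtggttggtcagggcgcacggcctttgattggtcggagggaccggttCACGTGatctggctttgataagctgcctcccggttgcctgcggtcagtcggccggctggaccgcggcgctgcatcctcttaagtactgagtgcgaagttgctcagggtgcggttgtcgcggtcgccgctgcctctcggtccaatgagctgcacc

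The *Stbd1* window held 4 GC boxes, of which 2 overlap, the *Gys1* window 3, the *Gbe1* window 1 and the *Ppp1r3c* window 0. A GC box occurred in 35.7% of the 32851 RefSeq mouse promoters of the same length. Among the members not printed, the *Pygl* window held 4 GC boxes and those of *Pygb* and *Gaa* held 0. The E-box occurred once in the *Ppp1r3c* window, at position -104 from the start, and once in that of *Gaa*, at position -140, against 7.15% of all promoters. These are matches of letters in a window, not bound sites.

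*Pcbp2* was lower in every Pcbp2 βKO sample than in every control sample at the same glucose, at 15.5 to 19.2 against 50.7 to 73.4 CPM (read counts relative to library size) at 2.8 mM and at 5.81 to 10.02 against 35.0 to 45.4 CPM at 16.7 mM. CPM were scaled with TMM factors, which align the bulk of genes between samples. *Txnip*, a known glucose-induced gene, lay between 18.96 and 41.7 CPM in all samples at 2.8 mM and between 406 and 1426 CPM in all samples at 16.7 mM. Total estimated counts ran from 47385513 to 82419400 per sample. All 10 β cell markers were detected in every group, and the summed acinar, endothelial and stellate markers stayed at or below 1.23 CPM in every sample. Of the samples at 16.7 mM, control replicate 4 and Pcbp2 βKO replicates 4 and 5 stood apart on the first principal component, at 9.87, 21.4 and 33.2 against 90.9 to 99.1 for the other 6, so results that rest on them are also given without them.

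Measured per length of transcript, the levels of the members differed widely. In TPM, which corrects for transcript length and so allows genes of a sample to be compared, control cells at 2.8 mM held 170.0 ± 17.8 TPM of *Gaa* and 97.9 ± 24.9 TPM of *Stbd1* (mean ± SD, n = 3). The others followed far below, with *Gbe1* at 8.16 ± 1.22, *Gys1* at 5.80 ± 2.22, *Pygb* at 3.01 ± 0.324, *Pygl* at 1.91 ± 0.109 and *Ppp1r3c* at 1.57 ± 0.266 TPM. In that group only *Gbe1* and *Gys1* overlapped among neighbours in the order. In Pcbp2 βKO cells at 2.8 mM, *Gaa* at 129 ± 22.5 and *Stbd1* at 103 ± 29.2 TPM overlapped (n = 5), and *Ppp1r3c* overlapped with both *Gys1* and *Pygb*. At 16.7 mM *Gaa* remained the most abundant, at 100.5 ± 8.83 TPM in control cells (n = 4) and 65.7 ± 5.75 TPM in Pcbp2 βKO cells (n = 5). *Stbd1* then overlapped with *Gbe1* in both genotypes, and the scarcest pair, *Pygl* and *Ppp1r3c*, overlapped too.

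*Stbd1* (ENSMUSG00000047963, chr5:92750891-92754438 on the plus strand of GRCm39, protein-coding) carried the largest glucose difference of the 7. In Pcbp2 βKO cells it was at 152, 253, 133, 182 and 165 CPM at 2.8 mM and at 11.1, 10.3, 6.99, 76.8 and 6.24 CPM at 16.7 mM. The groups did not overlap, and replicate 4 at 16.7 mM lay far above the other 4 of its group. In edgeR's quasi-likelihood test across all genes, *Stbd1* was lower at 16.7 mM by a log2 fold change of -2.99 (SE 0.72, fold 0.126, adjusted p = 0.00405). Without the 3 samples that stood apart the value was -4.26 (SE 0.28, adjusted p = 6.21e-08). Earlier results of these data were known when the genes were chosen, so these p-values may not be independent of the choice.

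Markers of other islet cells moved with glucose in the same Pcbp2 βKO samples. The summed alpha cell markers ran from 1452 to 9162 CPM at 2.8 mM and from 172 to 1301 CPM at 16.7 mM, without overlap, and of these markers *Irx1* was at 0 in all samples at 16.7 mM. The delta cell markers ran from 481 to 1320 and from 198 to 566 CPM, and those of PP cells from 1431 to 7425 and from 470.3 to 1456 CPM, with overlap. The summed β cell markers ran from 67334 to 97381 CPM at 2.8 mM and from 359038 to 475307 CPM at 16.7 mM. This sum includes *Ins1* and *Ins2*, which took 5.04% to 10.5% of all counts at 2.8 mM and 25.3% to 30.3% at 16.7 mM. It is therefore not a count of β cells. The part of these differences in the glucose results of *Stbd1* and the other members was not tested.

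In control cells *Stbd1* was at 166, 250.5 and 146 CPM at 2.8 mM and at 12.04, 10.9, 8.08 and 78.4 CPM at 16.7 mM. Here too the groups did not overlap and replicate 4 was the high sample at 16.7 mM. The log2 fold change was -2.77, or -4.20 without the samples that stood apart, values that belong to the comparison the gene was chosen from. Between genotypes *Stbd1* overlapped at both glucose concentrations. The log2 difference of Pcbp2 βKO from control cells was -0.08 at 2.8 mM (95% interval -1.58 to 1.42) and -0.30 at 16.7 mM (-1.68 to 1.09), intervals too wide to show equal levels. Nearly all *Stbd1* reads were assigned to the protein-coding transcript *Stbd1-201*, which held at least 97.0% of the estimated counts of the gene in every sample.

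**Figure D1:**
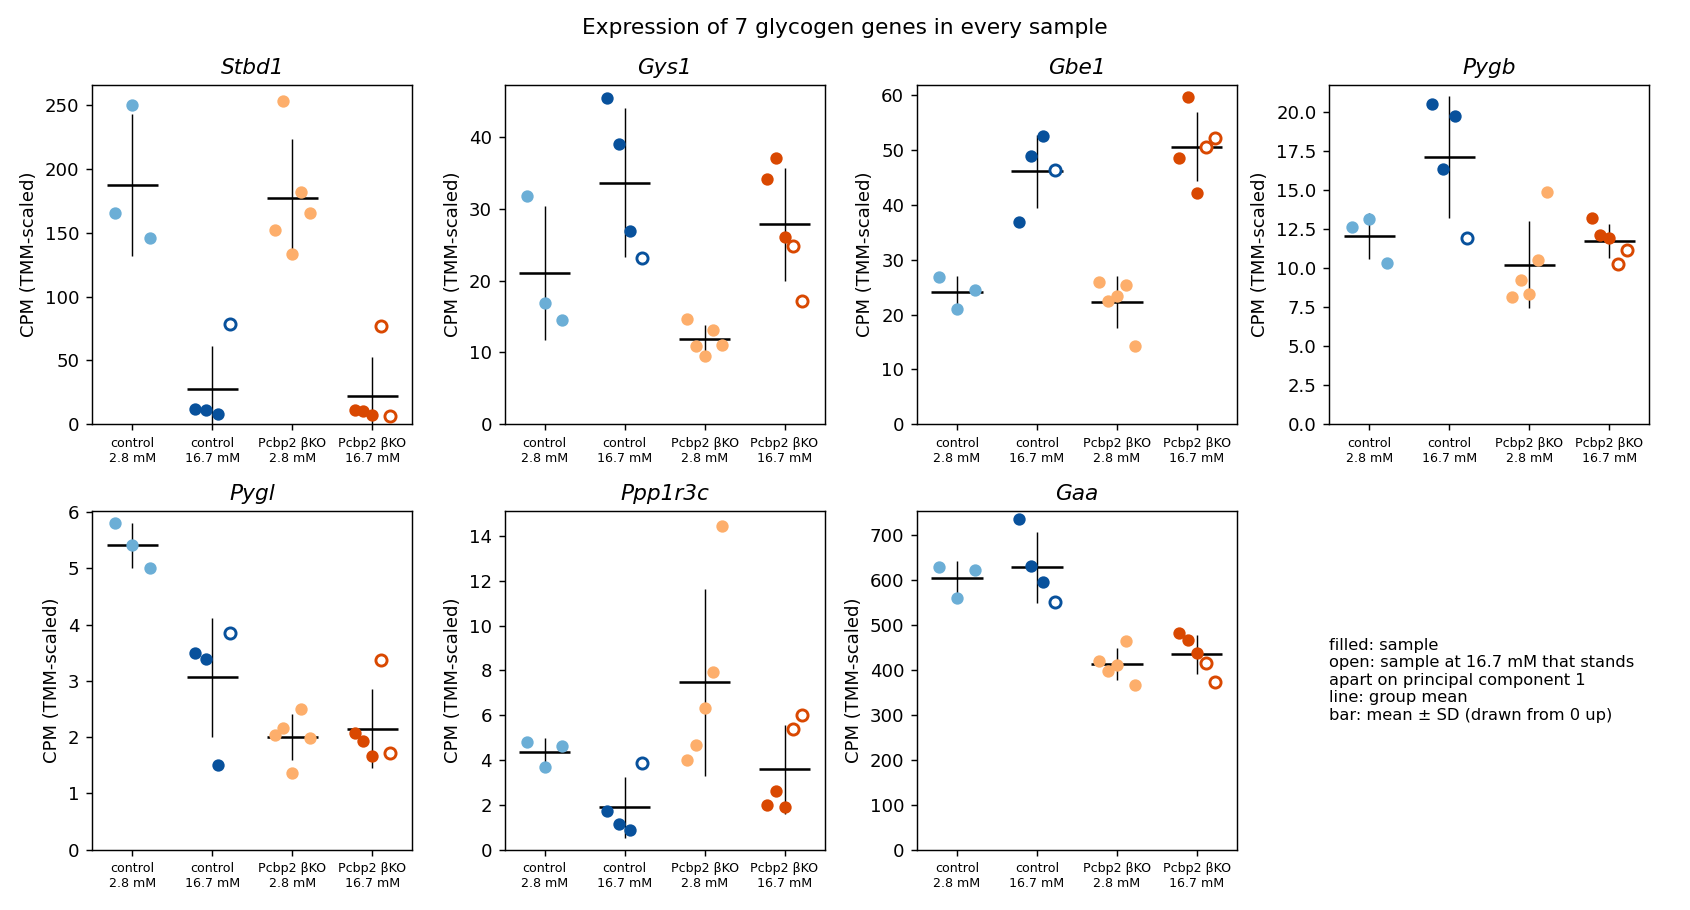
Expression of the 7 genes in every sample, in TMM-scaled CPM on linear axes from 0, by group. Points are samples, open where the sample stood apart on the first principal component, and lines and bars are means and SD (n = 3, 4, 5 and 5). *Stbd1* lay between 133 and 253 CPM in all samples at 2.8 mM and between 6.24 and 78.4 CPM in all samples at 16.7 mM.

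The genes whose profile over the 17 samples was nearest to that of *Stbd1* were looked up among the 10014 genes with a mean of at least 5 CPM, by the root mean square difference of their log2 CPM after each gene was centred on its own mean. The nearest were *Steap1* (0.389), *Ddit3* (0.405), which encodes the stress transcription factor CHOP, *Angptl6* (0.443), *Dock5* (0.656) and *Cyb5r1* (0.658). *Ddit3* was at 621, 799 and 505 CPM in control cells at 2.8 mM and at 64.7, 39.3, 49.0 and 269 CPM at 16.7 mM. In Pcbp2 βKO cells it was at 534, 535, 471, 527 and 569 CPM at 2.8 mM and at 30.9, 22.7, 32.2, 202 and 31.3 CPM at 16.7 mM. Replicate 4 at 16.7 mM was the high sample of its group in both genotypes for all 5 of these genes, as for *Stbd1*. The likeness is a description over samples that share the glucose difference, and no p-value is attached to it. Of the other members *Gys1*, *Gbe1*, *Pygb* and *Gaa* had a mean of at least 5 CPM, and the nearest of these, *Gaa*, came at place 6159. *Pygl* and *Ppp1r3c* were below that mean and were not compared.

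**Figure D2:**
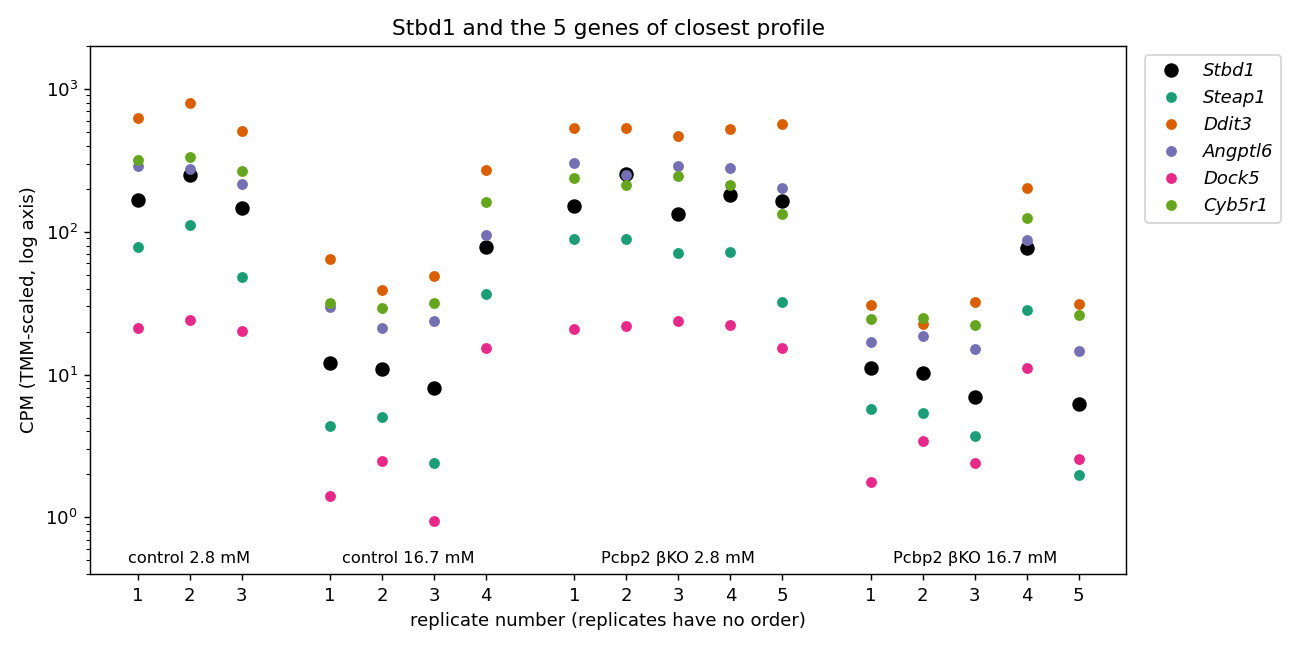
TMM-scaled CPM on a log axis of *Stbd1* (large black points) and the 5 genes of closest profile, by group and replicate number. In both genotypes replicate 4 at 16.7 mM lies above the other samples of its group for every gene shown, as with *Stbd1* at 78.4 and 76.8 CPM.

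*Gys1* and *Gbe1*, of the synthesis enzymes, were higher at 16.7 mM. *Gys1* (ENSMUSG00000003865, chr7:45084175-45106058, plus strand) was at 14.7, 10.9, 9.54, 13.1 and 10.97 CPM in Pcbp2 βKO cells at 2.8 mM and at 34.2, 37.1, 26.2, 24.9 and 17.2 CPM at 16.7 mM. The groups did not overlap, and the log2 fold change was 1.24 (SE 0.25, fold 2.36, adjusted p = 0.000978 by edgeR). *Gbe1* (ENSMUSG00000022707, chr16:70110715-70366609, plus strand) was at 25.9, 22.4, 23.4, 25.4 and 14.3 CPM at 2.8 mM and at 48.5, 59.7, 42.2, 50.6 and 52.2 CPM at 16.7 mM. It did not overlap either, and its log2 fold change was 1.19 (SE 0.15, fold 2.28, adjusted p = 2.86e-05).

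Both rises depend on how the samples are scaled. At 16.7 mM the transcripts of *Ins1* and *Ins2* took 22.3% to 33.1% of all counts, against 5.04% to 10.5% at 2.8 mM, which lowers the share left to every other gene. On TPM, which is not corrected for this, the median of all genes in the glucose comparison in Pcbp2 βKO cells was -0.80 on the log2(TPM + 1) scale, and *Gys1* and *Gbe1* stood at 0.09 and 0.13 there, not called by limma (adjusted p = 0.628 and 0.561). Relative to that median they were 0.89 and 0.93 higher. With total counts in place of TMM, the median was -0.47, and *Gys1* at 0.74 and *Gbe1* at 0.71 were still called. *Stbd1* was lower on every scale, at -4.33 on log2(TPM + 1) and at -3.40 with total counts.

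In control cells *Gys1* was at 31.8, 16.9 and 14.6 CPM at 2.8 mM and at 45.5, 39.1, 27.0 and 23.2 CPM at 16.7 mM, and these groups overlapped. *Gbe1* was at 26.8, 21.0 and 24.5 CPM and at 36.9, 48.9, 52.5 and 46.3 CPM, without overlap. The log2 fold changes were 0.68 and 0.94, and the genotype comparisons at either glucose called neither gene. *Gys1* at 2.8 mM had a log2 difference of -0.83 between genotypes (SE 0.27, adjusted p = 0.153), where control replicate 1 was the high sample.

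Neither *Pygb* nor *Pygl* was called for glucose in Pcbp2 βKO cells. *Pygb* (ENSMUSG00000033059, chr2:150628628-150673685, plus strand) was at 8.14, 9.24, 8.31, 10.5 and 14.9 CPM in Pcbp2 βKO cells at 2.8 mM and at 13.2, 12.1, 11.9, 10.3 and 11.1 CPM at 16.7 mM. The groups overlapped and the log2 fold change was 0.20 (SE 0.18, adjusted p = 0.453). In control cells *Pygb* was at 12.6, 13.1 and 10.3 CPM at 2.8 mM and at 20.5, 16.4, 19.7 and 11.9 CPM at 16.7 mM, with a log2 value of 0.51. Without control replicate 4, which stood apart, these groups did not overlap, and without all 3 such samples the value was 0.63. The genotypes overlapped at both concentrations, with a log2 difference of -0.55 at 16.7 mM (SE 0.19, adjusted p = 0.208). Without control replicate 4 at 16.7 mM that difference was -0.70 and was called (adjusted p = 0.0494).

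*Pygl* (ENSMUSG00000021069, chr12:70237585-70278262, minus strand) was the one member called between genotypes. At 2.8 mM it was at 5.80, 5.41 and 5.01 CPM in control cells and at 2.03, 2.16, 1.36, 2.50 and 1.98 CPM in Pcbp2 βKO cells. Every knockout sample was below every control sample, and the log2 difference was -1.43 (SE 0.30, fold 0.371, adjusted p = 0.0119 by edgeR). The call was lost without control replicate 1 at 2.8 mM (-1.38, adjusted p = 0.0563). At 16.7 mM the genotypes overlapped, with control cells at 3.50, 3.38, 1.51 and 3.86 CPM and Pcbp2 βKO cells at 2.08, 1.93, 1.66, 3.36 and 1.72 CPM, and the log2 difference was -0.51 (SE 0.28, adjusted p = 0.509).

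The glucose response of *Pygl* was thus -0.82 on the log2 scale in control cells and 0.10 in Pcbp2 βKO cells (SE 0.26, adjusted p = 0.815). The test of the difference between those responses gave 0.92 (SE 0.41, unadjusted p = 0.0366, adjusted p = 1), so it did not pass. *Pygl* is a low gene, with 90.0 to 501 estimated counts in a sample. The protein-coding transcript *Pygl-201* held at least 64.6% of them in every sample, the protein-coding *Pygl-202* up to 25.9% and the retained-intron transcript *Pygl-206* up to 11.96%.

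Other cell types moved with this comparison. At 2.8 mM the summed alpha cell markers (4 of 4 detected, led by *Gcg*) ran from 625 to 2544 CPM in control cells and from 1452 to 9162 CPM in Pcbp2 βKO cells. The delta cell markers (4 of 4) ran from 251 to 391 and from 481 to 1320 CPM, and the markers of PP cells (2 of 2) from 1111 to 1208 and from 1431 to 7425 CPM. The macrophage markers (5 of 5) overlapped, at 84.6 to 151 and 44.3 to 165 CPM, and the duct markers (3 of 3) at 14.1 to 114 and 8.06 to 83.7 CPM. No defining marker of alpha, delta or PP cells was at 0 in either group, and their part in the *Pygl* result was not tested. In these bulk samples fewer cells of a type and less RNA per cell cannot be told apart.

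The isozymes can also be read as shares of the summed phosphorylase TPM within a sample, which do not depend on scaling between samples. *Pygl* made up 36.4%, 35.5% and 37.4% in control cells at 2.8 mM, against 19.02%, 22.3%, 14.5%, 22.9% and 10.2% in Pcbp2 βKO cells at 2.8 mM. The knockout share was lower by 18.7 percentage points, without overlap, and the two-sided exact permutation p of 0.0357, the smallest that 3 against 5 samples allow, became 0.107 after Benjamini-Hochberg adjustment over 3 comparisons. At 16.7 mM the shares were 18.6% ± 7.97 (SD, n = 4) in control cells and 19.6% ± 5.10 (n = 5) in Pcbp2 βKO cells, a difference of 1.03 points (exact permutation p = 0.841). Within Pcbp2 βKO cells, glucose moved the share by 1.84 points (exact permutation p = 0.611, adjusted p = 0.841). *Pygb* held most of the remainder, at 49.6% to 87.0% in every sample, and *Pygm*, with 4.00 to 112 estimated counts in a sample, held 1.87% to 27.8%.

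**Figure D3:**
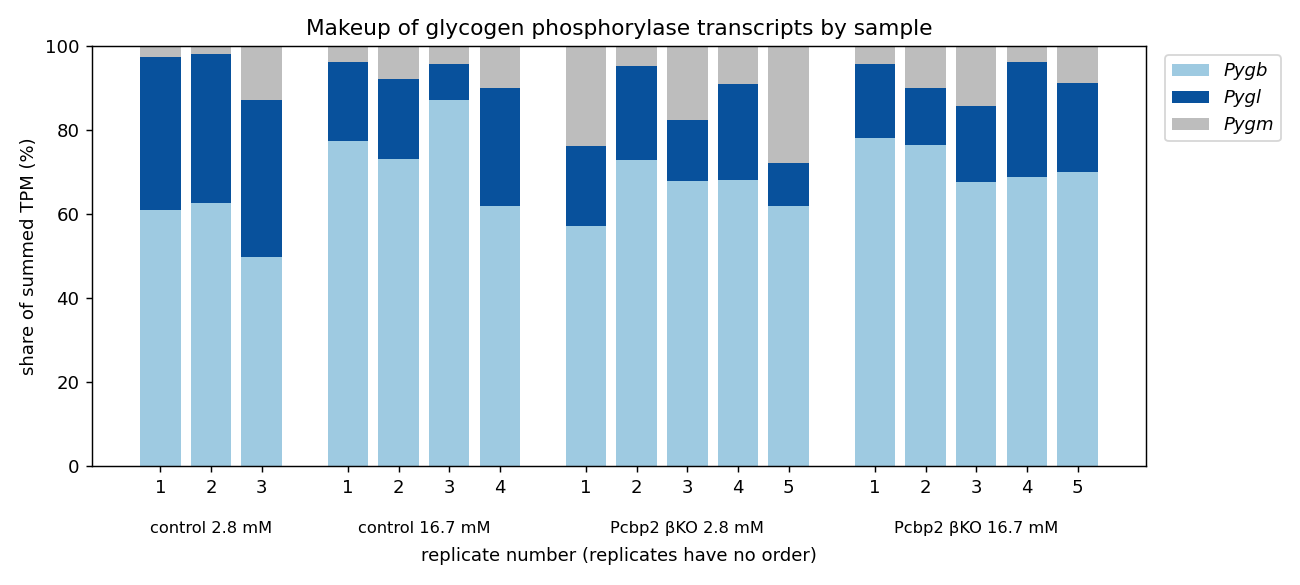
Stacked shares of *Pygb*, *Pygl* and *Pygm* in the summed phosphorylase TPM of each sample, in percent, by group and replicate number. *Pygl* holds 35.5% to 37.4% in the 3 control samples at 2.8 mM and 8.56% to 28.1% in all other samples.

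*Ppp1r3c* (ENSMUSG00000067279, chr19:36708523-36714070, minus strand) was scarce, with 52.0 to 1445 estimated counts in a sample, all from 1 annotated transcript. In Pcbp2 βKO cells it was at 4.02, 4.69, 6.32, 7.91 and 14.4 CPM at 2.8 mM and at 1.98, 2.63, 1.89, 5.40 and 6.03 CPM at 16.7 mM. Replicates 4 and 5, the samples at 16.7 mM that stood apart, lay within the range at 2.8 mM, and the log2 fold change of -1.06 did not pass edgeR's test (SE 0.43, adjusted p = 0.0759). Without the samples that stood apart the groups did not overlap and the value of -1.82 was called (adjusted p = 0.00161). DESeq2 on all samples called it as well, at -1.07 (adjusted p = 0.0362).

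In control cells *Ppp1r3c* was at 4.81, 3.67 and 4.62 CPM at 2.8 mM and at 1.72, 1.14, 0.874 and 3.87 CPM at 16.7 mM, where replicate 4 was again the high sample. The log2 fold change there was -1.20. Between genotypes the groups overlapped, with log2 differences of 0.77 at 2.8 mM (SE 0.51, adjusted p = 0.582) and 0.91 at 16.7 mM (SE 0.47, adjusted p = 0.466).

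*Gaa* (ENSMUSG00000025579, chr11:119158708-119176525, plus strand) was lower in Pcbp2 βKO than in control cells, and its glucose difference depended on the scale. At 2.8 mM it was at 627, 559 and 622 CPM in control cells and at 420.0, 398, 411, 464 and 366 CPM in Pcbp2 βKO cells. At 16.7 mM it was at 735, 629, 595 and 551 CPM and at 481, 467, 436, 414 and 372 CPM. Knockout samples lay below control samples at both concentrations without overlap, with log2 differences of -0.55 (SE 0.12, fold 0.684, adjusted p = 0.0238) and -0.53 (SE 0.12, fold 0.692, adjusted p = 0.0201) in edgeR's test. Both passed the adjusted p of 0.05 but not the fold of 1.5 that a call also required. The marker values given for *Pygl* apply to *Gaa* at 2.8 mM. At 16.7 mM the alpha cell markers overlapped, at 261 to 1448 CPM in control and 172 to 1301 CPM in Pcbp2 βKO cells, as did the delta cell markers, at 148 to 336 and 198 to 566 CPM, and those of PP cells, at 368 to 999 and 470.3 to 1456 CPM. The duct markers ran from 47.7 to 800.2 CPM in control cells (median 235) and from 12.7 to 143 CPM in Pcbp2 βKO cells (median 25.7). The macrophage markers ran from 38.5 to 105 CPM (median 86.1) and from 21.2 to 110.2 CPM (median 35.4). Their part was not tested either.

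The log2 glucose response of *Gaa* was 0.08 in Pcbp2 βKO cells (SE 0.11, adjusted p = 0.667) and 0.06 in control cells. Its sign depends on the scale, since it was -0.41 with total counts and -0.94 on log2(TPM + 1), where limma called it, beside medians of all genes of -0.47 and -0.80. The counts were split between 2 protein-coding transcripts, *Gaa-201* with 40.7% to 54.0% and *Gaa-203* with 45.8% to 59.0% of the gene in a sample.

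**Figure D4:**
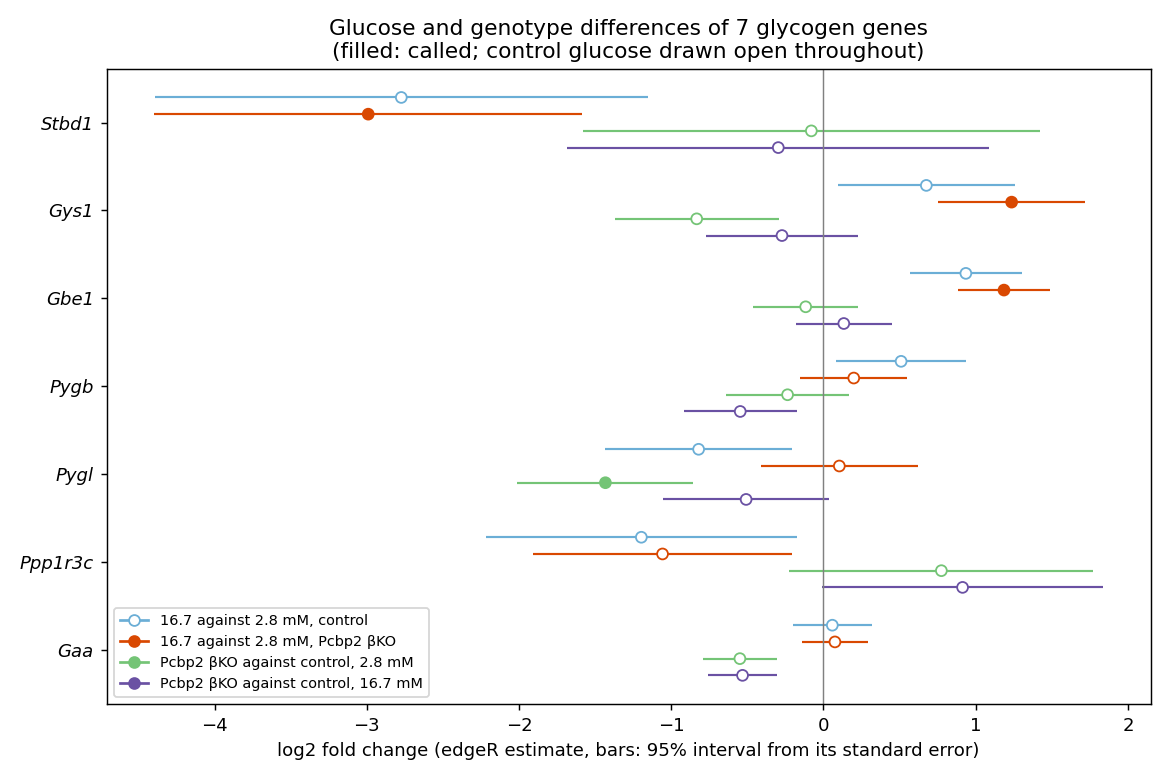
log2 fold changes of the 7 genes in the 4 comparisons, edgeR estimates with 95% intervals from their standard errors. Filled points passed both thresholds of a call, and the control glucose comparison is drawn open throughout. The interval of *Stbd1* for glucose in Pcbp2 βKO cells runs from -4.40 to -1.58.

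Of the 7 members, 3 were called by edgeR for glucose in Pcbp2 βKO cells (adjusted p below 0.05 and a fold above 1.5), *Gys1* and *Gbe1* higher and *Stbd1* lower. Among all 22784 genes tested, 13.4% were called higher and 10.4% lower, so many genes of these cells moved with glucose. The median log2 fold change was 0.10 over the members and 0.01 over all genes. In the genotype comparison at 2.8 mM, 1 member was called, *Pygl*, lower, against 0.255% of all genes higher and 1.78% lower. At 16.7 mM edgeR called 0 members, against 0.29% of all genes higher and 1.42% lower. DESeq2 called 0, beside 726 of 22784 genes, and limma on log2(TPM + 1) called 1, beside 218 of 13707. In edgeR 2 members had an unadjusted p below 0.05, beside 2763 of all genes. For the difference of the glucose response between genotypes, edgeR, DESeq2 and limma called 0 members, and edgeR called 0.00439% of all genes. In edgeR 1 member had an unadjusted p below 0.05, beside 1042 of all genes. The genotype comparisons and the interaction share their control samples with the control glucose comparison.

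In the control glucose comparison 7.15% of all genes were called higher and 6.69% lower. It is given here as a description. No member is counted against these shares, since the comparison was used in the choice. With the replicate numbers as a block, 4775 of all genes were called in place of 3153, and without the samples that stood apart 4898 of 22352 were.

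Beyond the members, a list of 49 genes of glycogen metabolism, members included, gives the setting, of which 45 passed the filter (*Ppp1r3a*, *Ppp1r3g*, *Prkag3* and *G6pc* did not). In Pcbp2 βKO cells 8 of the 45 were called higher and 3 lower at 16.7 mM, beside 13.4% and 10.4% of all genes, with a median log2 fold change of -0.0081, beside 0.01 over all genes. Without the members this was 6 higher and 2 lower of 38. Without the samples that stood apart 10 genes of the list were called higher and 7 lower, beside 3181 higher and 3209 lower of 22352 genes. The split follows the scaling, at 6 higher and 17 lower with total counts and at 2 higher and 25 lower of 36 on log2(TPM + 1). All genes split likewise, at 1482 higher and 6369 lower of 22784 with total counts. On log2(TPM + 1) they were at 356 higher and 8546 lower of 13707.

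Of the 5 tested genes that supply or remove glucose 6-phosphate, the entry point to glycogen, 3 were called higher, all of them genes that remove or transport it. *G6pc2*, the islet glucose 6-phosphatase subunit, was at 187 ± 89.1 CPM at 2.8 mM and 1720 ± 550 CPM at 16.7 mM (SD, n = 5 each). The log2 value was 3.20 (SE 0.36, adjusted p = 1.10e-05). *Slc37a4*, the glucose 6-phosphate transporter, rose by 1.09 and *G6pc3*, the widely expressed phosphatase, by 0.64 on the log2 scale. On log2(TPM + 1) the last 2 stood at -0.039 and -0.41 beside the median of -0.80, and only *G6pc2* kept a rise, of 2.26. The hexokinases, which make glucose 6-phosphate, were at -1.03 for *Hk1* (adjusted p = 0.0803) and at -0.86 for *Hk2* (adjusted p = 0.393). Without the samples that stood apart *Hk1* was called lower, at -1.46 (adjusted p = 0.0323).

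Of the 8 synthesis genes, *Gys2*, the liver synthase, was the third that rose, by 2.38 (SE 0.68, adjusted p = 0.0129), from 0.172 ± 0.0758 to 0.904 ± 0.503 CPM (n = 5 each). *Ugp2*, which makes the UDP-glucose that synthase uses, was at -0.57 (adjusted p = 0.00433), short of the fold of 1.5, and was called lower without the samples that stood apart (-0.59, adjusted p = 0.00873). The phosphorylase kinase subunits, of the enzyme that activates phosphorylase, gave 1 higher of 5, *Phka1* by 0.72, which turned negative on log2(TPM + 1), at -0.32. Of the 4 breakdown genes edgeR called 0 in Pcbp2 βKO cells, and DESeq2 called 0. An unadjusted p below 0.05 in edgeR was reached by 1 of them, beside 9046 of all 22784 genes. That 1 was *Pygm*, at -1.31 (SE 0.62, adjusted p = 0.126). Limma on log2(TPM + 1), a scale on which the median gene was at -0.80, called *Gaa* lower at -0.94.

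Among the glycogen-targeting subunits of protein phosphatase 1, *Ppp1r3b* and *Ppp1r3e* were called lower at 16.7 mM. *Ppp1r3b*, known from liver, fell from 11.5 ± 2.61 to 4.74 ± 2.71 CPM in Pcbp2 βKO cells (n = 5 each). Its log2 value was -1.28 (SE 0.42, adjusted p = 0.0283). *Ppp1r3e* fell from 2.15 ± 0.598 to 0.780 ± 0.345 CPM, or by a log2 value of -1.46 (SE 0.39, adjusted p = 0.00840). They were the 2 calls among the 8 tested genes of that list, and both were negative on each scale. *Ppp1r3d* was at 0.58 (adjusted p = 0.0389), just short of the fold of 1.5, and at -0.24 on log2(TPM + 1), and *Ppp1r3f* was at 1.30 (adjusted p = 0.115). Without the samples that stood apart these 2 were called higher, at 0.66 and 1.75, and 3 of the list were called lower, *Ppp1r3b*, *Ppp1r3e* and *Ppp1r3c*. In the glycophagy list, *Wipi1*, an early autophagy protein, rose by 2.33 (SE 0.42, adjusted p = 0.000441) while *Stbd1* fell, and the 3 GABARAP-family genes, which encode autophagy proteins to which STBD1 is thought to bind, did not reach a fold of 1.5. These were *Gabarap* at -0.38 (adjusted p = 0.0543), *Gabarapl1* at -0.22 (adjusted p = 0.199) and *Gabarapl2* at 0.40 (adjusted p = 0.0167). On log2(TPM + 1) all 3 were called lower, at -1.40, -1.22 and -0.61, so *Gabarapl2* changed sign. On that scale 8546 of 13707 genes were called lower, and the median of all genes was -0.80. *Gabarapl2* and *Ppp1r3d* lay above that median, *Gabarap* and *Gabarapl1* below it.

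Between genotypes at 2.8 mM, 11 of the 45 had an unadjusted p below 0.05 in edgeR, beside 2936 of all 22784 genes. EdgeR called 3 genes of the list lower and 0 higher, beside 1.78% and 0.255% of all genes. Beside *Pygl* these were *G6pc2* by -1.78 (SE 0.38, adjusted p = 0.0143) and *G6pc3* by -0.73 (SE 0.12, adjusted p = 0.00163). At 16.7 mM edgeR called 0 of the list, beside 1.42% of all genes lower and 0.29% higher. DESeq2 called 1, beside 726 of 22784 genes, and limma on log2(TPM + 1) called 1, beside 218 of 13707. An unadjusted p below 0.05 in edgeR was reached by 7 of the list, beside 2763 of all genes. *Wipi1* was at -1.49 at 2.8 mM (adjusted p = 0.108) and at -1.53 at 16.7 mM (adjusted p = 0.0820). Without the samples that stood apart it was called lower in both, at -1.48 (adjusted p = 0.00146) and -1.39 (adjusted p = 0.0100). For the difference of the glucose response between genotypes edgeR called 0, with 2 at an unadjusted p below 0.05, and DESeq2 and limma called 0. Over all genes 1042 had such an unadjusted p in edgeR.

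**Figure D5:**
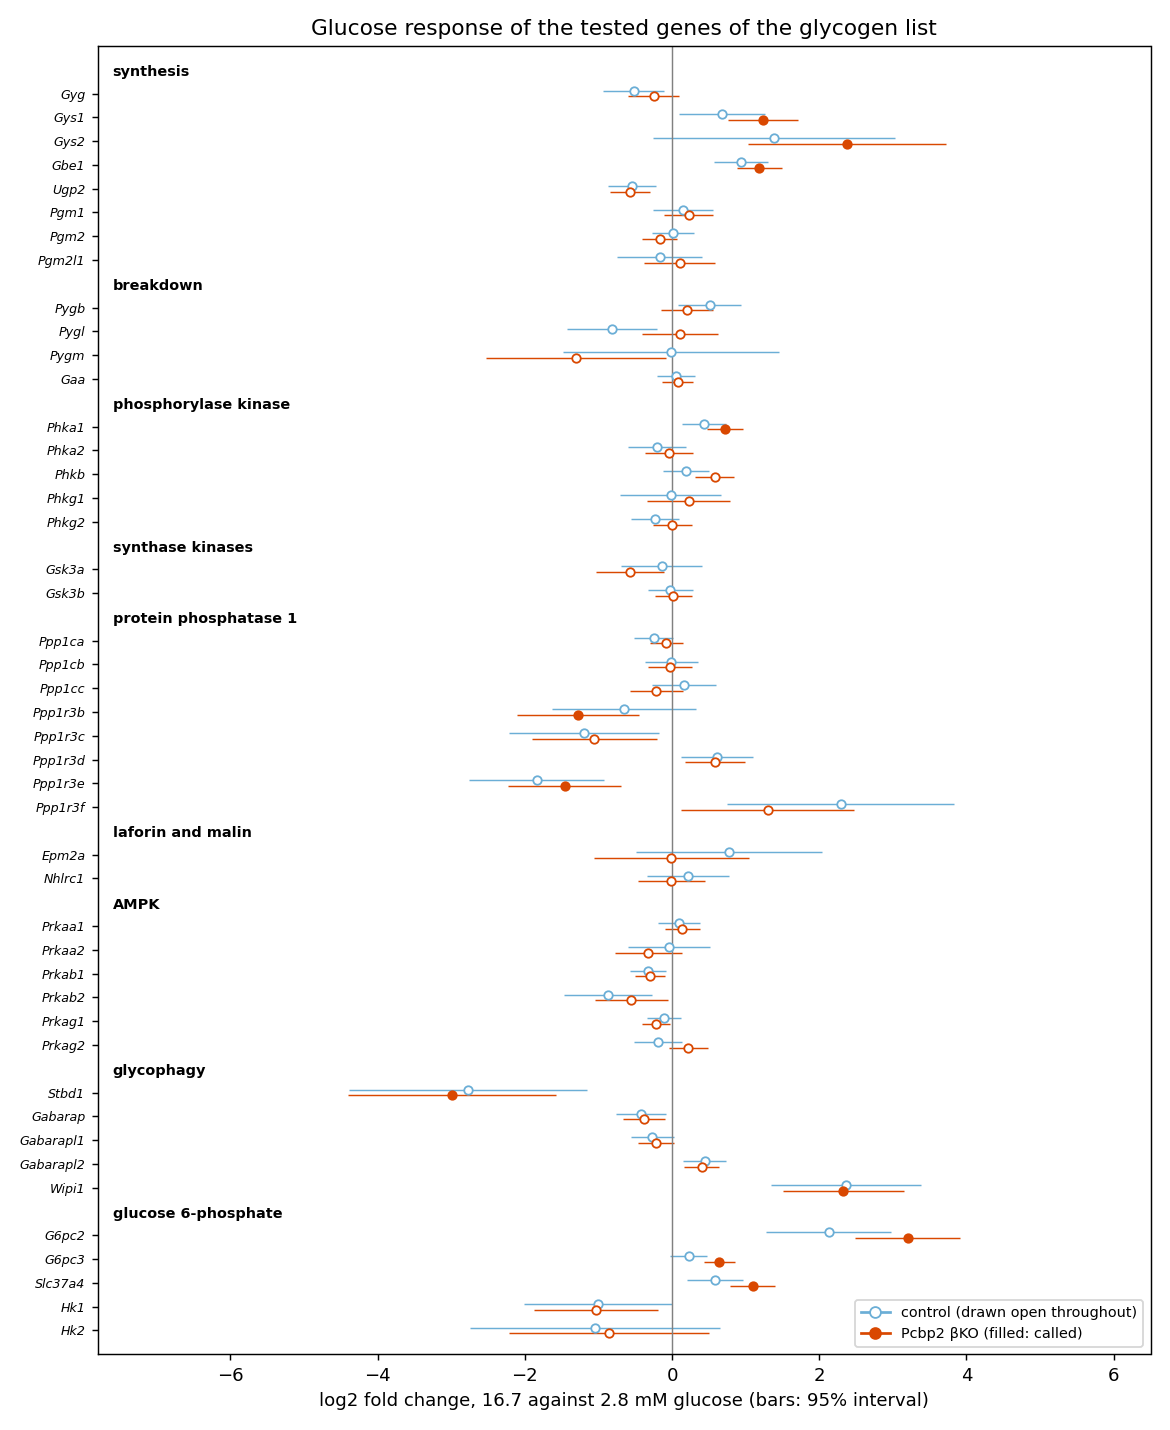
log2 fold changes of the 45 tested genes of the glycogen list at 16.7 mM against 2.8 mM glucose, by role, in control (blue, drawn open throughout) and Pcbp2 βKO cells (orange, filled where called), with 95% intervals from the standard errors. In Pcbp2 βKO cells 8 genes are called higher and 3 lower, with *G6pc2* at 3.20 and *Stbd1* at -2.99 at the ends.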

How the data were processed

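Libraries were made with an ultra-low-input RNA kit from sorted cells. According to the study's methods, reads were pseudoaligned by the authors to mouse transcripts with Kallisto. They deposited estimated counts per transcript, not normalized, and TPM, which Kallisto scaled to effective transcript length and to one total per sample. Kallisto's version is not given in the sources used here. The labels name the build mm39. Gene coordinates came from GENCODE on GRCm39, and promoters from a RefSeq table of GRCm38.p6 located in GRCm39 by exact match.

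Estimated counts were summed over 142376 transcripts into 55357 genes, rounded, filtered with edgeR's default filter and scaled by TMM (0.7518 to 1.288). One model of the 4 group means, without the batch term of the authors' model, gave 5 contrasts with the quasi-likelihood test of edgeR 4.0.16 (R 4.3.3) and Benjamini-Hochberg adjustment over all 22784 genes. A call needed an adjusted p below 0.05 and a fold above 1.5. DESeq2 1.42.0, limma 3.58.1 on log2(TPM + 1) for genes of at least 1 TPM in 3 samples, other scalings, filters and left-out samples were alternatives. The scripts were tested on simulated data. Shares used exact permutation tests (SciPy 1.17.1).

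The members and gene lists were chosen with earlier results of these data known. Named genes were the 7 members and listed genes that were called or are isozymes or partners of a member. Some genes of the list are not reported here, and counts over the list leave them out. Same-numbered samples were compared by the correlation (r) of their deviations from the group mean. It was positive for every such pair, and all pairs exceeded a limit of 0.1 only in the control glucose comparison (r 0.123 to 0.258, 3 pairs). Correlations of differently numbered samples are not given here.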

Additional observations from a re-analysis of the deposited data

Results flagged for a closer look

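In 3 of the 21 groups of 4 or 5 samples examined over the 7 genes, 1 sample lay so far from the others that the gap exceeded the 95% limit of Dixon's test, which chance alone passes in about 1 of 20 groups, and the groups of 3 were not examined. *Stbd1* in control replicate 4 at 16.7 mM was at 78.4 CPM, where the other 3 samples lay between 8.08 and 12.04 CPM. *Stbd1* in Pcbp2 βKO replicate 4 at 16.7 mM was at 76.8 CPM, where the other 4 lay between 6.24 and 11.1 CPM. *Pygl* in that same Pcbp2 βKO sample was at 3.36 CPM, where the other 4 lay between 1.66 and 2.08 CPM. Both samples also stood apart on the first principal component.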

How the results depend on the processing

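The 3 samples that stood apart, the scaling and the 3 or 4 control samples limit these values, and counts behind *Pygl* and *Ppp1r3c* were low. In the Pcbp2 βKO glucose comparison (r 0.0664 to 0.193) and between genotypes (r 0.0470 to 0.354), same-numbered samples also had positive correlations, some below the limit of 0.1. The highest was that of replicate 4 between genotypes at 16.7 mM. Whether the replicate numbers pair these samples is not settled, and the main tests are unpaired. With the replicate block edgeR called *Ppp1r3c* for glucose in Pcbp2 βKO cells (-1.10, adjusted p = 0.00172), and *Stbd1* in the interaction was at 0.10. With the block on only the groups compared, 2 members were called for the knockout at 2.8 mM and *Gbe1* stood at 0.0054 there. The control glucose comparison was used in the choice of members, so its counts of members are a description and no test. Its counts over all genes are given at the end of this section. There, with *Stbd1* included, the members past both thresholds numbered 2. They numbered 5 with the block, 6 with the block on only these groups and 6 without the samples that stood apart. Limma gave 4 on log2(TPM + 1) and 4 on log2(TPM + 0.1). On those last 2 scales, 1 and 1 members were called for the knockout at 16.7 mM, and 0 for the knockout at 2.8 mM on log2(TPM + 0.1).

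The sign turned as follows, and the cause was not tested. For glucose in Pcbp2 βKO cells with total counts, log2(TPM + 1) and log2(TPM + 0.1) in turn, *Pygb* was at -0.29, -0.50 and -0.69, *Pygl* at -0.36, -0.25 and -0.59, and *Gaa* at -0.41, -0.94 and -0.95. The medians of all genes there were -0.47, -0.80 and -0.25. In the same order for the knockout at 2.8 mM, *Stbd1* was at 0.039, 0.055 and 0.056 and *Gbe1* at 0.00029, 0.0079 and 0.0032, beside medians of 0.15, 0.12 and 0.058. In the interaction *Gaa* was at -0.069, -0.19 and -0.20, beside medians of -0.10, -0.18 and -0.095. *Gaa* there was at -0.010 with protein-coding transcripts, and *Ppp1r3c* at -0.27 and -0.032 on the TPM scales. Without the samples that stood apart, *Pygl* in Pcbp2 βKO cells was at -0.12 and its share of phosphorylase moved by -1.28 points with glucose. As shares of estimated counts, the glucose and 16.7 mM knockout differences were -0.949 and -0.256 points.

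Leaving out 1 sample in turn, the share moved from -0.10 to 3.32 points for glucose and from -2.32 to 4.18 points for the knockout at 16.7 mM. Members called ran from 0 to 2 for either knockout comparison and from 1 to 4 for control glucose, the last as a description only. Those fits tested 22510 to 23890 genes in all and called 242 to 492 of them for the knockout at 2.8 mM. Their calls numbered 213 to 652 for the knockout at 16.7 mM and 1382 to 4480 for control glucose. *Pygl* in Pcbp2 βKO cells ran from -0.11 to 0.19, *Stbd1* from -0.24 to 0.19 for the knockout at 2.8 mM, from -1.66 to 1.09 at 16.7 mM and from -1.58 to 1.17 in the interaction, *Gbe1* from -0.21 to 0.0072 at 2.8 mM, *Ppp1r3c* from -0.13 to 0.74 and *Gaa* from -0.056 to 0.10 in the interaction. The high ends of *Stbd1* at 16.7 mM and of control glucose came without control replicate 4. Over all genes the calls for the knockout at 2.8 mM were 464, against 835 by DESeq2, 1039 with the block on only these groups and 242 without control replicate 3. At 16.7 mM they were 389, against 726 by DESeq2, 218 and 193 on the TPM scales, 238 with only these groups, 587 without the samples that stood apart, and 213 and 652 without control replicates 3 and 4. The interaction had 1, and 34 by DESeq2, 15 unfiltered and 13 with the block. Glucose called 5431 genes in Pcbp2 βKO cells, of which 3056 were higher, against 1482 higher of 7851 with total counts and 356 higher of 8902 and 530 higher of 11776 on the TPM scales. In control cells glucose called 3153 of 22784 genes, against 1382 to 4480 with 1 sample left out and 4837 with total counts. It called 4898 of 22352 without the samples that stood apart, and 4775 of 22784 and 5675 of 19355 with the blocks. On the TPM scales it called 7164 of 13707 and 7899 of 45702.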
